A study of Heterocephalus glaber with 2 samples.

Results

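The cadherin family was examined in naked mole-rat (NMR) skin fibroblasts (NSFs) with and without knockdown of *β-catenin*. Members were taken by gene symbol, as *Cdh* followed by a digit, *Pcdh*, or *Dsg* and *Dsc* followed by a digit. The rule found 43 genes among the 37520 entries listed for each library. Of these, 34 were above 0 in at least 1 library and 16 averaged 1 FPKM or more over both libraries. FPKM counts the fragments of a gene relative to its exon length and to the mapped fragments of the library, so levels of different genes can be compared. All fold-changes below come from 1 library per condition. Replicate error is therefore unknown, no test was possible, and every difference is a description of these libraries.

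NSFs are primary fibroblasts from adult NMR skin, grown at low oxygen. The *shControl* library came from cells carrying the empty lentiviral vector, and the *shβ-catenin* library from cells carrying a hairpin against *β-catenin*. Both cultures were selected with puromycin. The control carried no hairpin of its own, so effects of a hairpin as such cannot be told apart from those of lowering β-catenin.

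Cadherins are membrane proteins that bind their like on the neighboring cell through calcium-dependent extracellular repeats. The tail of the classical cadherins binds β-catenin, which links them through α-catenin to actin. The tail of the desmosomal cadherins binds plakoglobin and thereby the intermediate filaments. T-cadherin has a lipid anchor in place of a tail, and protocadherins have tails that do not bind β-catenin. Fibroblasts typically use N-cadherin and OB-cadherin, whereas E-cadherin is the cadherin of epithelia.

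The targeted gene was measured first. *Ctnnb1*, which encodes β-catenin, was listed at 530 FPKM in the control and 69.0 FPKM after knockdown, as the labels state. Of the 17 fibroblast markers, all were above 0 in both libraries and 12 exceeded 10 FPKM in both. Of the 15 that passed a filter of 1 FPKM on the mean, 4 were higher and 11 lower after knockdown, with a median log2 fold-change of -0.56. Of all genes at that filter 51.3% were lower, with a median of -0.01. The intermediate filament gene *Vim* was the highest of the markers, at 3363 and 2804 FPKM. The collagen gene *Col3a1* was 1.97-fold lower and *Col6a1* 2.09-fold lower, whereas the proteoglycan gene *Dcn* was 7.67-fold higher, at 0.316 and 2.42 FPKM. *Dcn* reached the filter only through the *shβ-catenin* library. The 2 markers below the filter, *Thy1* and *Lum*, were both higher after knockdown. The 43 members made up 0.0694% of the FPKM sum in *shControl* and 0.0717% in *shβ-catenin* cells. A listed 0 does not show absence, because read counts are not given.

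The summed level of the family was close to even between the libraries, but its make-up differed. The 43 members summed to 423 FPKM in the control and 425 FPKM after knockdown. *Cdh11*, *Cdh2* and *Cdh13* held 80.2% of the first sum and 75.5% of the second. Among them *Cdh2* was higher and *Cdh11* and *Cdh13* were lower after knockdown. *Cdh11* was the most abundant member in *shControl* cells and *Cdh2* in *shβ-catenin* cells.

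**Figure D1:**
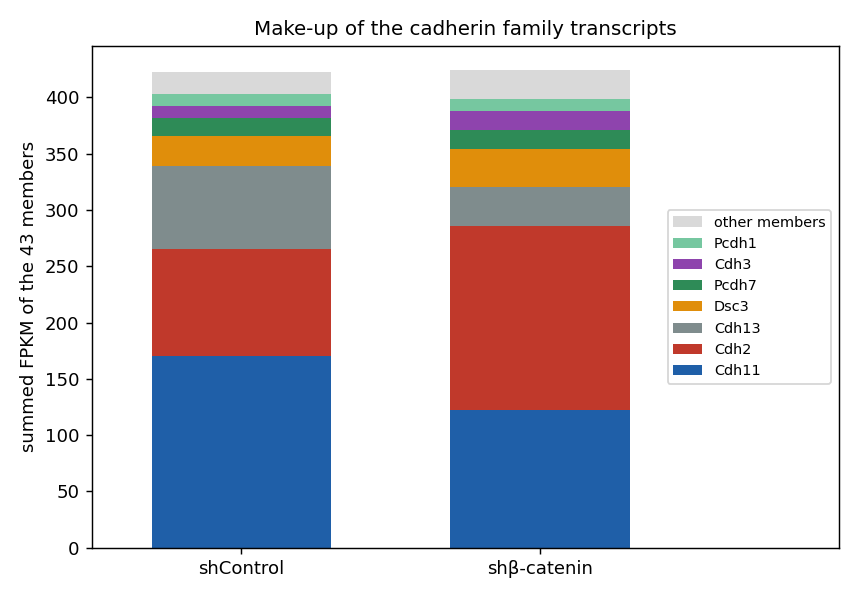
Summed FPKM of the 43 members in the *shControl* and *shβ-catenin* libraries (1 library each, no error bars), stacked by gene from *Cdh11* at the bottom to the members with lower means at the top. The columns reach 423 and 425 FPKM, with a larger *Cdh2* segment and smaller *Cdh11* and *Cdh13* segments on the right.

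Of the 16 members that averaged 1 FPKM or more, 12 were higher and 4 lower after knockdown. Of all 13097 genes at that level 48.7% were higher and 51.3% lower. Fold-changes on the log2 scale were computed after adding 0.1 FPKM to both values, which understates the change of low genes. The median log2 fold-change of the 16 was 0.16, against -0.01 for all genes. By more than 2-fold 1 member was higher, *Pcdh20*, and 1 was lower, *Cdh13*. Among all genes 3.27% were higher and 2.05% lower by that much. On this scale no member of the 16 passed the 4-fold threshold of the study's methods, which 0.680% of all genes passed upward and 0.206% downward.

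**Figure D2:**
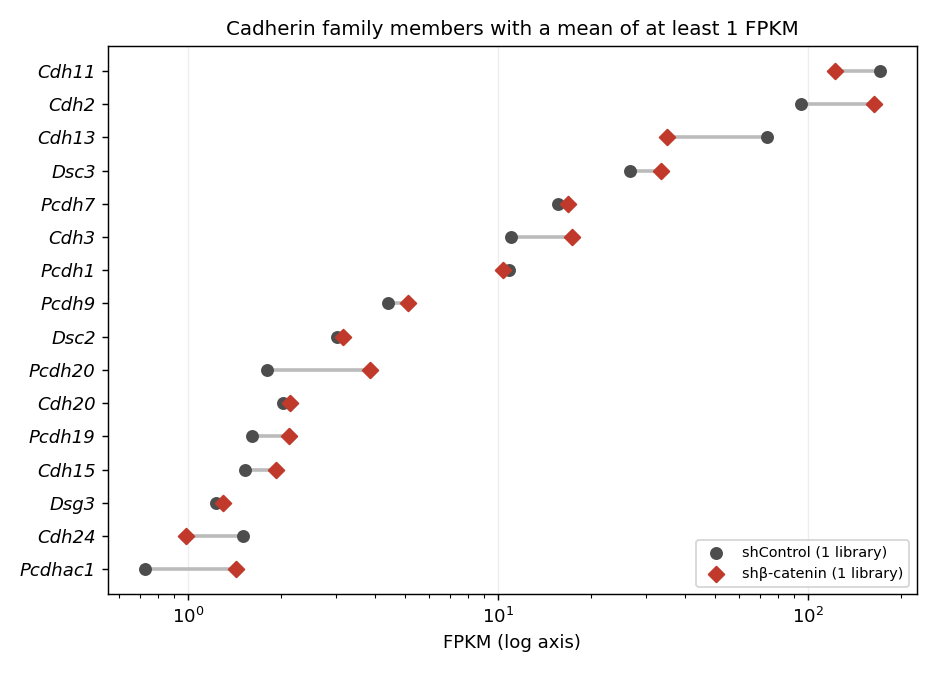
FPKM (log axis) of the 16 members averaging 1 FPKM or more in *shControl* (circles) and *shβ-catenin* (diamonds), 1 library each, joined by a line. The widest gaps are those of *Pcdh20*, higher after knockdown, and *Cdh13*, lower after knockdown.

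Type I classical cadherins, the group of N-cadherin and E-cadherin, were higher after knockdown in each of the 3 genes that reached the filter. Of all genes at that filter 48.7% were higher. *Cdh2* encodes N-cadherin and was listed at 94.9 FPKM in the control and 163 FPKM after knockdown, a 1.72-fold higher value (log2 fold-change 0.78). This moved it from rank 944 to rank 487 among all entries. Of the 6933 genes averaging 10 FPKM or more, 2.06% were higher by as much as *Cdh2*.

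*Cdh3*, the gene of P-cadherin, which is known from basal epithelia and placenta, was listed at 11.1 and 17.4 FPKM, a 1.57-fold higher value. As many as 3.16% of genes at that level were higher by the same or a larger step. *Cdh15*, the gene of M-cadherin of skeletal muscle, was listed at 1.53 and 1.92 FPKM. The other skeletal muscle markers summed to 0.359 FPKM in the control and 0.221 FPKM after knockdown over 9 genes. Of these, 6 were at 0 in both libraries, among them the muscle determination genes *Myod1* and *Myf5*.

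The remaining type I genes were near or at 0. *Cdh1*, the gene of E-cadherin, was listed at 0 in the control and at 0.0179 FPKM after knockdown, and *Cdh4*, the gene of R-cadherin, at 0 in both. *Cdh1* and *Cdh3* lie next to each other, with 1 entry between them, in the RefSeq gene table of NMR assembly H.glaber_assembly_v1.0. The neighbors were thus listed at very different levels. The type I genes summed to 107 FPKM in the control and 183 FPKM after knockdown, of which *Cdh2* made up most.

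Type II cadherins summed to 174 FPKM in the control and 127 FPKM after knockdown, and nearly all of it was *Cdh11*. *Cdh11*, the gene of OB-cadherin of mesenchymal cells and osteoblasts, was listed at 170 FPKM in the control and 122 FPKM after knockdown, a 1.40-fold lower value (log2 fold-change -0.48). Of the genes averaging 10 FPKM or more, 8.28% were lower by as much. Of the fibroblast markers 11 of 15 were lower too, among them the PDGF receptor gene *Pdgfra* at 59.0 and 36.2 FPKM. Of all genes at that filter 51.3% were lower. The 4 higher markers were *Fn1* (1089 and 1957 FPKM), *Fap* (3.69 and 7.93 FPKM), *Twist1* and *Dcn*. Below the filter *Thy1* (0.303 and 1.39 FPKM) and *Lum* (0.574 and 1.38 FPKM) were higher too. The part of the fibroblast markers in the value of *Cdh11* was not tested. In a bulk library, fewer cells of a kind and less RNA per cell cannot be told apart.

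*Cdh24*, a type II cadherin whose human protein binds catenins, was listed at 1.502 and 0.982 FPKM, 1.53-fold lower. It reached the filter only through the *shControl* library. *Cdh20*, a type II gene known from the neural tube and nervous system, was listed at 2.03 and 2.14 FPKM, nearly even. *Cdh8*, *Cdh9*, *Cdh10* and *Cdh22*, which are mainly genes of the nervous system, were at 0 in both libraries.

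The ratio of *Cdh2* to *Cdh11* does not depend on how the libraries are scaled to each other. It was 0.556 in *shControl* and 1.34 in *shβ-catenin* cells, a 2.41-fold difference. *Cdh2* thus made up 33.7% of the summed FPKM of types I and II in *shControl* cells and 52.8% in *shβ-catenin* cells, and *Cdh11* 60.5% and 39.5%. The 16 genes of types I and II together, which share the β-catenin-binding tail, summed to 282 and 309 FPKM. Their sum was therefore 1.10-fold higher in the library in which *Ctnnb1* was 7.69-fold lower.

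*Cdh13*, the gene of T-cadherin, showed the largest step among the 7 members averaging 10 FPKM or more. T-cadherin, the lipid-anchored member, is a receptor of adiponectin and of LDL. It was listed at 73.8 FPKM in the control and 35.1 FPKM after knockdown, a 2.10-fold lower value (log2 fold-change -1.07). Of genes at that level 1.21% were lower by more than 2-fold, and 0.851% by as much as *Cdh13*. Its rank among all entries went from 1222 to 2568.

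**Figure D3:**
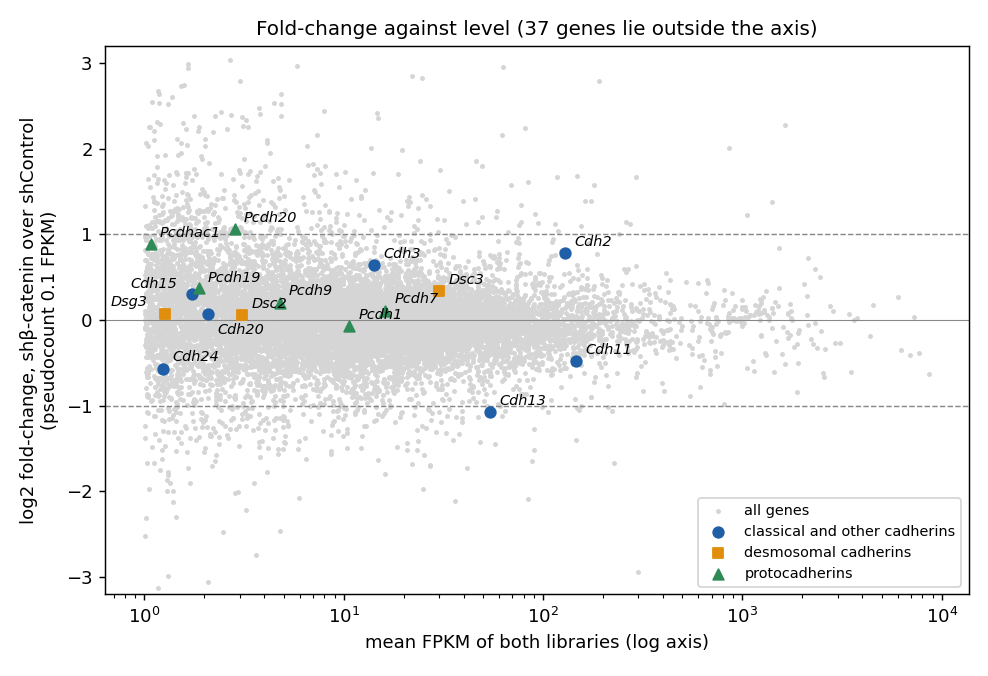
Log2 fold-change of *shβ-catenin* over *shControl* (pseudocount 0.1 FPKM) against the mean FPKM of both libraries (log axis) for all 13097 genes averaging 1 FPKM or more (grey) and the 16 members (colored by class). Dashed lines mark 2-fold, and 37 genes lie outside the axis. *Cdh13* and *Pcdh20* lie just past the lines, and *Cdh2* stands high for its level.

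Desmosomal cadherins summed to 31.0 FPKM in the control and 38.3 FPKM after knockdown, and each of the 3 above the filter was higher. Of all genes at that filter 48.7% were higher. *Dsc3*, a desmocollin of basal and stratified epithelia, was listed at 26.7 FPKM in the control and 33.7 FPKM after knockdown, a 1.26-fold higher value. Of the genes averaging 10 FPKM or more, 10.4% were higher by as much. *Dsc2*, the desmocollin found most widely in tissues, was listed at 3.03 and 3.16 FPKM. *Dsg3*, a desmoglein of stratified epithelia, was listed at 1.23 and 1.30 FPKM. Both *Dsc2* and *Dsg3* were nearly even. Of the genes with a mean from 1 to 10 FPKM, 47.0% were higher by as much as *Dsc2* and 45.5% by as much as *Dsg3*.

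*Dsc3* was thus 21.7 times the level of *Dsg3* in *shControl* and 25.9 times in *shβ-catenin* cells. *Dsg2*, the desmoglein of simple epithelia and heart, was at 0.0499 and 0.120 FPKM, and *Dsg1*, *Dsg4* and *Dsc1*, which mark differentiated layers of epidermis and hair, were at 0 in both libraries. The 7 genes lie in 1 cluster in the RefSeq table, desmogleins beside desmocollins, with *Cdh2* in the same neighborhood.

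Markers of keratinocytes were measured beside them. Their 15 genes summed to 444 FPKM in the control and 481 FPKM after knockdown, most of it the tight junction gene *Cldn1* at 240 and 321 FPKM. Of the 4 above the filter, *Cldn1* was higher and the other 3 lower, where 51.3% of all genes were lower. With upper quartile scaling 2 were higher and 2 lower, since the log2 fold-change of *Sfn* lay close to 0. *Krt18*, a keratin of simple epithelia, was at 22.6 and 7.21 FPKM, 3.13-fold lower. *Perp*, a desmosome-associated gene, was at 105 and 77.5 FPKM and *Sfn* at 75.4 and 74.1 FPKM. Of these markers *Krt5*, *Krt1*, *Krt8*, *Ivl* and *Lor* were at 0 in both libraries. The keratinocyte genes *Krt14*, *Krt15*, *Krt17* and *Flg* were looked for too but have no entry by symbol, so their levels are unknown. The part of other cells in the desmosomal values was not tested.

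Among non-clustered protocadherins, many of which act in cell sorting and neuronal wiring, the summed FPKM was near even for the δ1 genes (1.05-fold higher). It was 1.42-fold higher for the δ2 genes and 2.08-fold higher for *Pcdh20*, *Pcdh15* and *Pcdh12* together. The δ1 genes *Pcdh7*, *Pcdh1* and *Pcdh9* were the most abundant protocadherins. *Pcdh7* was listed at 15.6 FPKM in the control and 16.8 FPKM after knockdown, and *Pcdh1* at 10.9 and 10.4 FPKM. *Pcdh9* was listed at 4.42 and 5.11 FPKM. Between 29.5% and 45.4% of genes at those levels were as far from even, in the same direction, as each of these 3.

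*Pcdh20*, known from the brain, was the non-clustered protocadherin with the largest step above the filter. It was listed at 1.80 FPKM in the control and 3.87 FPKM after knockdown, a 2.14-fold higher value (log2 fold-change 1.06). Of the 6164 genes with a mean from 1 to 10 FPKM, 4.88% were higher by as much. With a pseudocount of 1 FPKM its log2 fold-change was 0.80, below the 2-fold line.

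The δ2 genes were low. *Pcdh19*, whose human gene is mutated in a form of epilepsy, was listed at 1.61 and 2.12 FPKM, and *Pcdh8*, known from the paraxial mesoderm and synapses, at 0.777 and 0.982 FPKM. Both were higher in *shβ-catenin* cells, by 1.32-fold and 1.26-fold. For *Pcdh19* 21.4% of genes at its level were higher by as much.

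The clustered protocadherins, which give neurons their surface identity, have 4 entries by symbol. *Pcdhac1*, of the α cluster, was listed at 0.727 FPKM in the control and 1.42 FPKM after knockdown, a 1.96-fold higher value. It reached the filter only through the *shβ-catenin* library. *Pcdhgb7*, of the γ cluster, was listed at 0.423 and 0.282 FPKM, *Pcdhb2* at 0.0603 and 0.0966 FPKM, and *Pcdhb1* at 0 in both. Genes of the α cluster share their last exons with one another, as do those of the γ cluster. Reads from such exons may be split among the copies, so these values are uncertain.

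The 18 members below the filter but above 0 lay between 0 and 1.22 FPKM, with 14 higher and 4 lower after knockdown. Of all 9027 genes in that range 60.9% were higher and 39.1% lower. With 0.1 FPKM added to both values, more than 4-fold higher was 1 member, *Cdh19*, as were 3.54% of all genes in that range. More than 2-fold higher were 4 members, *Cdh19*, *Cdh7*, *Pcdh10* and *Pcdh18*, as were 17.6% of genes there. On the same scale no member of the 18 was lower by more than 2-fold or 4-fold, where the shares of all genes were 9.70% and 1.88%.

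**Figure D4:**
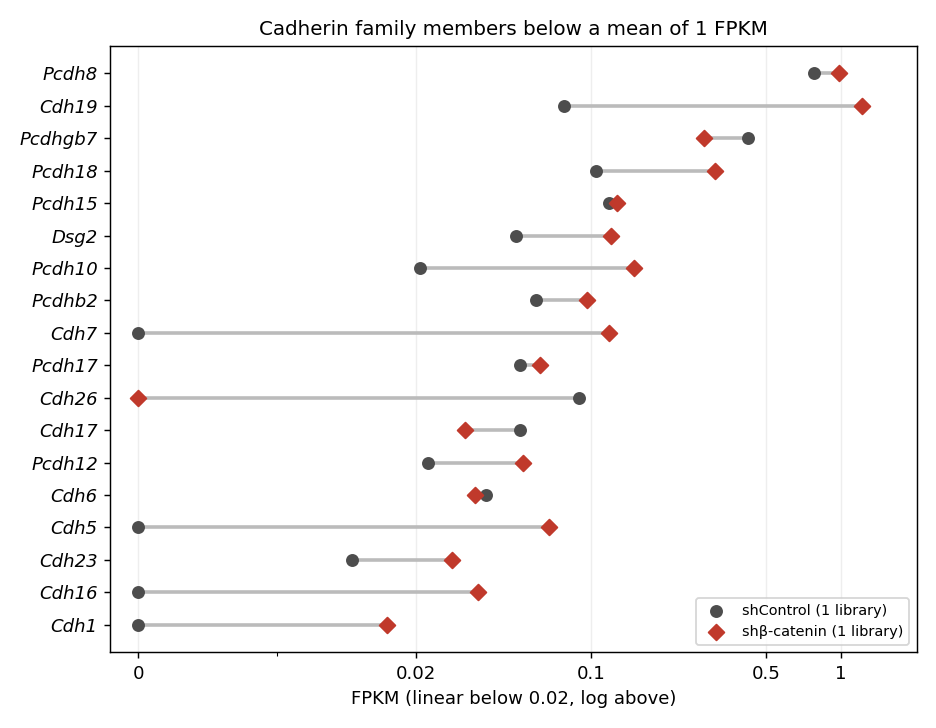
FPKM of the 18 members below a mean of 1 FPKM and above 0 in *shControl* (circles) or *shβ-catenin* (diamonds), 1 library each. The axis is linear below 0.02 and logarithmic above. *Cdh19* shows the widest gap among members above 0 in both libraries, and 5 members are at 0 in 1 library.

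For low genes the FPKM ratio can show how few fragments lie behind it. Equal numbers of fragments gave a ratio of *shβ-catenin* to *shControl* of 1.202, the commonest value over genes below 1 FPKM in each library, and other whole numbers give its multiples. Of 13 low members above 0 in both libraries, 3 matched a ratio of small whole numbers within 0.002%, and 8 more matched within 0.2%. Multiples of each pair give the same ratio, so each pair is the smallest possible. The exact Clopper-Pearson 95% intervals below cover counting error only.

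*Cdh19*, a cadherin of Schwann cells and their precursors, was listed at 0.0779 FPKM in the control and 1.22 FPKM after knockdown, a 15.6-fold higher value. Its smallest match, within 0.2%, was 1 fragment against 13, with an interval of the FPKM ratio from 2.35 to 664. At 2 against 26 fragments the interval was 3.91 to 136. The log2 fold-change was 2.89, but 1.04 with a pseudocount of 1 FPKM.

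The other Schwann cell markers used here were lower in sum. Their 7 genes added up to 11.2 FPKM in the control and 9.23 FPKM after knockdown. *S100b* was at 0 in both libraries, and *Sox10*, the regulator of the lineage, was at 0.0632 and 0.0507 FPKM. The highest of the 7, the transcription factor gene *Egr2*, was listed at 5.79 and 4.68 FPKM. The myelin gene *Mbp* was at 3.09 and 1.86 FPKM, while *Gfap*, an intermediate filament gene of glia, was higher, at 2.04 and 2.45 FPKM. The part of Schwann cells in the value of *Cdh19* was not tested.

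*Pcdh10*, a δ2 protocadherin of the nervous system, was listed at 0.0206 and 0.149 FPKM, 7.22-fold higher. It matched 1 against 6 fragments, with an interval of 0.875 to 332 that includes no difference. At 2 against 12 fragments the interval was 1.61 to 66.4. *Pcdh18*, another δ2 gene, was listed at 0.105 and 0.314 FPKM, which matched 2 against 5 fragments with an interval of 0.492 to 31.6. *Pcdhgb7* matched 9 against 5 (0.176 to 2.22). At their smallest matches, of the 11 low members with a match, the interval of *Cdh19* alone lay off a ratio of 1. These intervals are not adjusted for the number of members looked at, and they leave out replicate error.

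The members at 0 in *shControl* and above 0 in *shβ-catenin* cells were *Cdh7*, *Cdh5*, *Cdh16* and *Cdh1*, genes of neural crest, endothelium, kidney and epithelia in that order, 4 of 18, against 21.2% of all low genes. They were at 0.118, 0.0680, 0.0352 and 0.0179 FPKM in *shβ-catenin* cells. *Cdh26*, a cadherin known from epithelia, was the reverse, at 0.0897 and 0 FPKM, and 16.3% of low genes were at 0 in *shβ-catenin* cells only. No fold is given against a listed 0.

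*Cdh5* encodes VE-cadherin, the junction protein of endothelium. The other 12 endothelial markers summed to 25.7 FPKM in the control and 38.8 FPKM after knockdown, most of it the VEGF receptor gene *Flt1* at 15.4 and 27.5 FPKM. Of the 4 above the filter, 3 were higher and 1 lower, where 48.7% of all genes were higher. The adhesion gene *Pecam1* was 7.55-fold higher, at 0.275 and 2.08 FPKM, and the transcription factor gene *Sox18* was lower, at 8.35 and 6.12 FPKM. *Pecam1* reached the filter only through the *shβ-catenin* library. *Tek*, *Tie1*, *Emcn* and *Robo4* were at 0 in both libraries. The part of endothelial cells in the value of *Cdh5* was not tested.

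The other low members were *Pcdh15*, a cadherin of hair cell tip links, at 0.119 and 0.126 FPKM, and its tip link partner *Cdh23*, at 0.0154 and 0.0277 FPKM. *Pcdh17*, a δ2 gene, was at 0.0522 and 0.0628 FPKM, *Pcdh12*, a protocadherin of endothelium and trophoblast, at 0.0222 and 0.0534 FPKM. *Cdh6*, the gene of K-cadherin of kidney, was at 0.0381 and 0.0343 FPKM, and *Cdh17*, a cadherin of the intestine, at 0.0520 and 0.0312 FPKM. Altogether the 18 summed to 1.90 and 3.74 FPKM, and *Cdh19* accounted for most of the gap. A total of 9 members were at 0 in both libraries, against 41.0% of all entries.

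The symbol rule misses family genes entered by a locus number. By gene identifier, the RefSeq table names 4 such entries, *Cdh18*, *Cdh12*, *Pcdh11x* and *Pcdhb15*. *Cdh18* (LOC101707839), a type II cadherin mainly of the nervous system, was listed at 4.61 FPKM in the control and 1.07 FPKM after knockdown. This was a 4.32-fold lower value and a log2 fold-change of -2.01, a larger step than that of any of the 16 members above the filter. The study's own list of representative downregulated genes holds this entry too. *Cdh12* was at 0 in both, *Pcdh11x* at 0.0277 and 0 FPKM, and *Pcdhb15* at 0.160 and 0.154 FPKM. With these entries added, 12 of 17 family genes above the filter were higher and the median log2 fold-change was 0.11.

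Partners of the cadherins were measured in lists. Among 12 catenin, plakophilin and desmoplakin genes above the filter, 1 was higher and 11 lower after knockdown, with a median log2 fold-change of -0.24. The 11 include the targeted *Ctnnb1*. Of all genes at that filter 51.3% were lower, with a median of -0.01. With median ratio or upper quartile scaling 3 of the 12 were higher and 9 lower. This was because the log2 fold-changes of *Pkp2* and *Pkp4* lay close to 0. Besides *Ctnnb1*, only *Ctnna2*, the α-catenin of neurons, was lower by more than 2-fold, at 2.18 and 0.508 FPKM. Without a pseudocount *Ctnna2* was 4.28-fold lower, past the study's 4-fold threshold, and the study lists it among its downregulated genes. It reached the filter only through the *shControl* library. *Ctnnd2*, a neural catenin of the juxtamembrane tail, was at 3.87 and 2.55 FPKM, and the plakophilin *Pkp1* at 5.15 and 4.20 FPKM. *Jup*, the gene of plakoglobin, which can take the place of β-catenin on classical cadherins, was at 108 and 93.2 FPKM. *Jup* was thus listed above *Ctnnb1* after knockdown and below it in the control. *Jup*, *Pkp2* and *Pkp4* were named after their values were seen.

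Of 13 genes for shedding and turnover of cadherins, 12 passed the filter. Against 48.7% higher among all genes, 11 of the 12 were higher and 1 lower, with a median of 0.30. The lower one was *Adam10*, the main protease that sheds N-cadherin and E-cadherin, at 38.9 FPKM in the control and 23.0 FPKM after knockdown, 1.69-fold lower. *Ncstn*, a γ-secretase subunit, was at 77.1 and 113 FPKM, *Furin*, which can cleave cadherin precursors, at 33.3 and 48.7 FPKM, and the phosphatase *Ptprk* at 14.7 and 22.2 FPKM. Among repressors of E-cadherin and regulators of mesenchymal state, 4 were higher and 4 lower. *Snai1*, a repressor of *Cdh1*, was the one past 2-fold, at 1.296 and 3.63 FPKM. *Twist1* was at 32.9 and 46.8 FPKM, *Zeb1* at 6.43 and 8.54 FPKM, and *Tcf3* at 19.4 and 15.2 FPKM.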

How the data were processed

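RNA of 1 *shControl* and 1 *shβ-catenin* culture was sequenced as stranded mRNA libraries with paired ends. The authors mapped the reads to the NMR genome (GCA_000247695.1) with TopHat 2.0.13, which used Bowtie2 2.2.3 as aligner, and SAMtools 0.1.19. The deposited FPKM values come from Cufflinks 2.2.1. The gene annotation and the depth are not given in the sources used here. The FPKM were used as deposited. Fold-changes are log2((*shβ-catenin* + 0.1)/(*shControl* + 0.1)), plain folds carry no pseudocount, and counts use means of at least 1 FPKM. The members and lists were chosen with earlier results of these data known. Named were all members above the filter, past 4-fold or above 0 in 1 library only, the 6 highest below it, and up to 4 partners per list. Some markers of the Schwann cell list are not reported here and were left out of its sums. Other low members, *Jup*, *Pkp2*, *Pkp4* and marker genes other than the highest of each list were named after their values were seen. Locus numbers were matched to RefSeq gene identifiers (15905 of 21350 found), and 39 of 43 member symbols are in that table, which was used for names and neighbors only.

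Whole fragments were sought for totals up to 60 (ratio within 0.002%), and, an alternative chosen after the data were seen, up to 15 (within 0.2%). The first matched 64.2% of 5649 low genes, against 0.655% with the depth factor shifted by 1.4%, and the second 66.0%, against 2.39% to 4.97% with shifted factors. The fold-changes and the match within 0.002% were tried on simulated data, but the match within 0.2% was not. Alternatives were pseudocounts of 0.01 and 1, median ratio and upper quartile scaling, no filter, a mean of at least 5 FPKM, symbols with 1 entry, and locus-number entries added. Tools were scipy 1.17.1, numpy 2.4.6, pandas 2.3.3 and, for plots, matplotlib 3.10.9, under Python 3.11.15.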

Additional observations from a re-analysis of the deposited data

How the results depend on the processing

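Each of the 17 members above the filter or past 4-fold kept its direction under pseudocounts of 0.01 and 1 FPKM and under both scalings. This outcome was fixed, because a pseudocount added to both values cannot change a direction. The scalings added at most 0.02 (median ratio) and 0.04 (upper quartile) to a log2 fold-change, and less for low genes. That is below the smallest step of the 17, which was 0.06 for *Dsc2*. With no filter other than a value above 0, 26 members were higher and 8 lower, 5 were higher by more than 2-fold and 1 by more than 4-fold, and the median was 0.27. Of all 22124 genes at that setting 53.7% were higher, 9.10% by more than 2-fold and 1.85% by more than 4-fold. Their median was 0.04. For means of 5 FPKM or more, 4 of 7 members were higher (0 of them by more than 2-fold) and 3 lower, where 46.2% of all 9274 genes were higher. The median of the 7 was 0.11. With a pseudocount of 1 FPKM the count higher by more than 2-fold was 0. With locus-number entries added, 2 were lower by more than 2-fold and 1 by more than 4-fold, both counts including *Cdh18*. These changes follow from which genes are counted and from the pseudocount. No paired analysis was possible because each condition has 1 library, and no library could be left out. The fragments behind each gene are unknown above a mean of 1 FPKM, so no counting interval is given there.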

Other observations

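Genes outside the rule that carry cadherin repeats were also measured. Of 16 such genes 9 averaged 1 FPKM or more. After knockdown 5 of them were higher and 4 lower, all within 2-fold, where 48.7% of all genes at that level were higher. *Cdhr1*, a cadherin known from photoreceptors, was listed at 132 FPKM in the control and 165 FPKM after knockdown, the same range as *Cdh2* and *Cdh11*. *Fat4* and *Dchs1*, which encode a receptor and its ligand in planar polarity, differed in opposite directions. *Fat4* was at 3.30 and 4.98 FPKM and *Dchs1* at 12.1 and 7.80 FPKM. *Celsr3*, a seven-pass cadherin of axon guidance, was at 2.39 and 3.06 FPKM.

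The factors that loop and silence the protocadherin clusters were near even (median log2 fold-change -0.03, and 0.0060 with upper quartile scaling), with 5 higher and 5 lower of 10 above the filter. The cohesin subunits *Smc1a* (19.9 and 14.7 FPKM), *Smc3* (31.8 and 23.9 FPKM) and *Rad21* (36.9 and 30.9 FPKM) were lower, and *Stag2* (21.7 and 25.6 FPKM) was higher. Of 11 adherens junction linkers above the filter, 2 were higher and 9 lower, against 51.3% lower among all genes. All lay within 2-fold, and with either scaling 3 were higher and 8 lower. Among these *Nectin2*, an adhesion molecule of the same junctions, was at 23.9 and 16.2 FPKM, *Nectin3* at 20.6 and 15.8 FPKM, *Magi1*, a scaffold, at 4.18 and 3.34 FPKM, and *Vcl*, the gene of vinculin, at 80.8 and 56.8 FPKM. Of 4 melanocyte markers above the filter 3 were higher and 1 lower, where 48.7% of all genes were higher. *Mlana* was the highest, at 7.14 and 10.1 FPKM, and *Dct* the lower one, at 6.10 and 5.87 FPKM.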
